A study of Rattus norvegicus with 6 samples.

Results

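The miR-148 and miR-152 family was followed in small RNA from the extracellular vesicles of dedifferentiated fat (DFAT) cells of the rat. Its members were taken by name: every deposited row of the stems miR-152, miR-148a and miR-148b, on either arm, with 1 row per mature sequence. The rule found 5 of the 417 mature sequences in the count table, namely rno-miR-152-3p (rno stands for rat and is left out hereafter), miR-152-5p, miR-148a-3p, miR-148b-3p and miR-148b-5p. DFAT cells are fibroblast-like cells obtained from the floating fat cells of adipose tissue by ceiling culture, here from Sprague-Dawley rats. Vesicles were compared between cells with 0 d in osteogenic induction medium (n = 3) and cells kept in it for 14 d (n = 3). The series holds no cells kept for 14 d without induction. Effects of the osteogenic medium and of the time in culture therefore cannot be told apart. No genetic change is given for either group, and neither the labels nor the design text state an age for the animals.

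The members of this family are known for 1 shared seed, the stretch near the 5′ end through which a miRNA pairs with its target messengers. The -3p arms are the usual guide strands, and the maintenance DNA methyltransferase Dnmt1 is among their best known targets. In human and mouse cells miR-148a is known to favour fat cell formation, and human miR-148b has been linked to osteoblast formation in mesenchymal stem cells.

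The sequences are shown because the 3 guide strands differ in few bases while their counts differed widely. Each is printed 5′ to 3′ as the deposited table gives it, with the seed (bases 2 to 8) in capitals.
miR-152-3p: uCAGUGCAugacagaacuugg
miR-148b-3p: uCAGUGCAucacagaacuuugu
miR-148a-3p: uCAGUGCAcuacagaacuuug
The 3 guide strands share all 7 bases of the seed. Counted from the 5′ end, miR-148b-3p differs from miR-152-3p by G10C and G20U and has 1 more base at its 3′ end. The substitutions from miR-152-3p to miR-148a-3p are U9C, G10U and G20U. The guide strands were thus 85.7% to 90.5% identical over 21 bases, and all of the differences lie outside the seed.

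The -5p arms, the usual passenger strands, carry other seeds.
miR-152-5p: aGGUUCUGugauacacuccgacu
miR-148b-5p: gAAGUUCUguuauacacucagg
miR-148a-5p: aAAGUUCUgagacacucugacuc
The last of these is RefSeq's sequence for a strand with no row in the count table. It has the same seed as miR-148b-5p, whereas miR-152-5p has a seed of its own.

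RefSeq's miRNA table (rat build GRCr8, whereas the deposited files use another, rn6) holds the same mature sequence for 4 of the 5 members. In that build miR-152-3p lies at chr10:82329435-82329455 on the plus strand, miR-148b-3p at chr7:136299930-136299951 on the plus strand and miR-148a-3p at chr4:81664447-81664467 on the minus strand. Mir152 lies within the span of Copz2 and Mir148b within that of Copz1, each on the strand of the gene that holds it. Copz1 and Copz2 encode paired forms of a subunit of the vesicle coat that serves traffic between Golgi and endoplasmic reticulum. Mir148a lies in the span of no other listed gene. The stems miR-152 and miR-148b each gave counts from both arms, but RefSeq's miRNA table holds no hairpin of Mir152. The hairpin of Mir148b (chr7:136299870-136299966, plus strand) is therefore printed, with both arms in capitals.
Mir148b: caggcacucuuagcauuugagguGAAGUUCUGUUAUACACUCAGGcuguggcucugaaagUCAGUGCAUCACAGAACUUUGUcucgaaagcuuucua

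The libraries held 120766 to 164424 counts at 0 d and 58730 to 73236 at 14 d. The smallest listed count was 2 in every library, so a value that is not listed may stand for a count below that. Of 8 mesenchymal marker miRNAs all were listed, and their summed share ran from 31.2% to 44.0% at 0 d and from 60.8% to 70.3% at 14 d. The rise of this sum was that of miR-21-5p, which alone held 29.4% to 42.4% at 0 d and 59.7% to 68.7% at 14 d. The other markers of the list were mixed. The mean share of miR-100-5p was 0.959% at 0 d and 0.262% at 14 d. miR-143-3p went the other way, with 362, 262 and 100 counts at 0 d and 351, 165 and 262 in the smaller 14 d libraries. Among markers of other sources, the liver miRNA miR-122-5p held 2.77% to 10.7% at 0 d and 0.409% to 0.594% at 14 d. The 4 erythrocyte markers together held 0.174% to 0.471% and then 0.00491% to 0.0153%. The 2 endothelial markers held 0.138% to 0.220% and then 0.0205% to 0.0409%. Of 6 leukocyte markers 4 were listed, with 0.0328% to 0.0795% and then at most 0.00654%, and the defining miR-223-3p and miR-142-3p had no row. Of 4 neural markers 3 were listed (0.290% to 0.347%, then 0.0410% to 0.113%), of 5 muscle markers 2 (0.243% to 0.298%, then 0.0150% to 0.0622%), and of 5 epithelial markers 2, with at most 0.0103% in any library. The 2 listed muscle markers moved in opposite directions. miR-206-3p had 454, 403 and 294 counts at 0 d and 6, 0 and 4 at 14 d. miR-1-3p was listed at 14 d alone, with 32, 11 and 23 counts. The part of these shifts in the values of the family was not tested. Whether the 3 samples of a group are separate cultures or animals is not stated, and p-values here reflect the spread among those samples alone, technical or not.

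miR-152-3p made up nearly the whole family in every library and was higher in the 14 d vesicles. At 0 d it had 1353, 1524 and 551 counts in replicates 1 to 3, and at 14 d, where libraries were smaller, 928, 2909 and 1470. As a share of the library these were 0.889%, 0.927% and 0.456% at 0 d and 1.52%, 3.97% and 2.50% at 14 d. Each 14 d library thus lay above each 0 d library, with 0 d replicate 3 the lowest and 14 d replicate 2 the highest. The interval from counting alone was 0.419% to 0.496% for the lowest and 3.83% to 4.12% for the highest (95%, exact Clopper-Pearson), so the spread within a group was wider than counting error, the only error such intervals cover. The group means were 0.757% ± 0.261 and 2.66% ± 1.23 (SD, n = 3 each; exact 2-sided permutation p = 0.1, the smallest that 3 against 3 can give). Without 14 d replicate 2 the 14 d mean was 2.01%, and without 0 d replicate 3 the 0 d mean was 0.908%. Counts are relative to the library, and more vesicles that carry miR-152-3p cannot be told apart from more copies per vesicle.

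**Figure D1:**
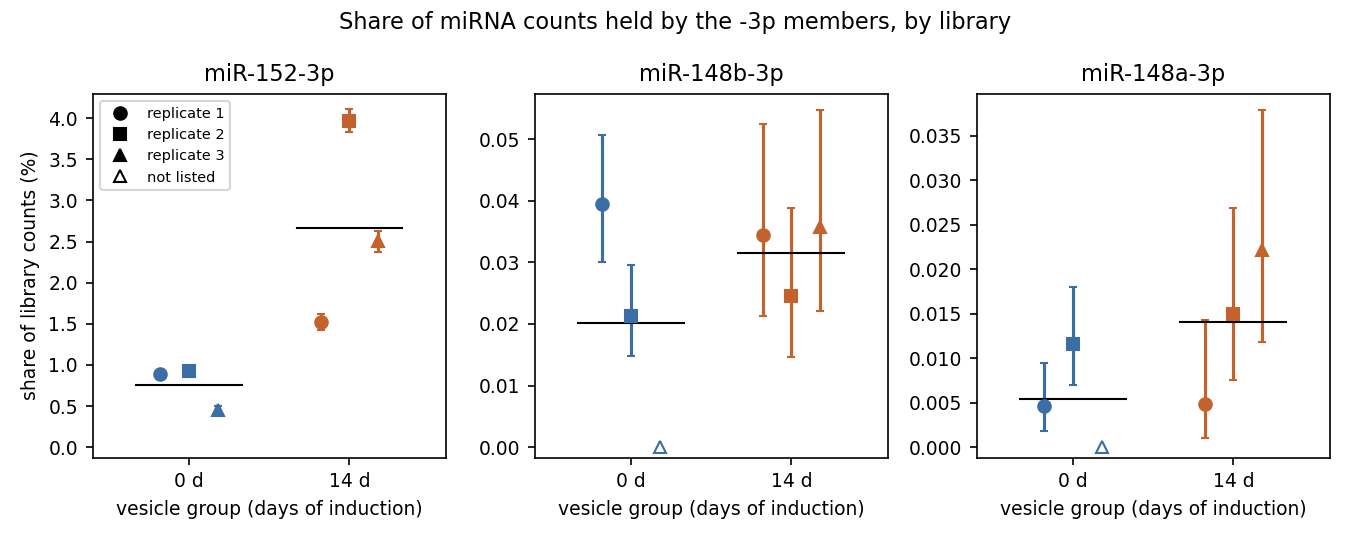
Share of each library's miRNA counts (y axis, %, a scale of its own in each panel) held by miR-152-3p, miR-148b-3p and miR-148a-3p in the 0 d (blue) and 14 d (orange) vesicles. Points are libraries with 95% Clopper-Pearson intervals, open symbols are values not listed, and black lines are group means. For miR-152-3p the 14 d libraries (1.52% to 3.97%) lie above the 0 d libraries (0.456% to 0.927%), whereas the groups overlap for both miR-148 members.

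By rank of count within a library, miR-152-3p stood at places 16, 14 and 20 at 0 d and at places 8, 4 and 5 at 14 d. Ranked by the mean share of a group it was number 16 at 0 d, just below miR-100-5p (0.959% ± 0.221) and above let-7d-5p (0.611% ± 0.0236; SD, n = 3). At 14 d it was number 5, just below miR-27b-3p (3.37% ± 2.03) and above miR-24-3p (2.06% ± 1.10; SD, n = 3). In both groups these neighbours differ from miR-152-3p by less than the SD of miR-152-3p between replicates.

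In the fit over all 119 sequences that passed the filter on low counts, 3 members were tested, and 1 of them rose while none fell. Over all tested sequences 31 rose, or 26.1%, and 34 fell, or 28.6%, so that 54.6% were called. The median log2 fold change was 2.28 over the 3 tested members and 0.26 over all tested sequences. The former is the value of miR-148a-3p, which was not called. miR-152-3p rose by 2.93 ± 0.69 on the log2 scale, or 7.61-fold (SE, n = 3 per group; edgeR quasi-likelihood test, adjusted p = 0.0102). Among all tested sequences 19 had a larger log2 fold change, and 12 of those were annotated miRNAs. The scale of the change depended on 14 d replicate 2, without which it was 1.97 ± 0.40, or 3.93-fold (adjusted p = 0.00769). With total counts in place of the trimmed mean of M-values (TMM) factors it was 1.81 ± 0.51, or 3.52-fold (adjusted p = 0.0133). Under total counts the median shift of the log2 fold changes was -0.86, and 18 sequences were called higher against 46 called lower. The factor of 14 d replicate 2 was 0.471, against 0.923 and 0.922 for the other 14 d libraries and 1.34 to 1.38 at 0 d.

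**Figure D2:**
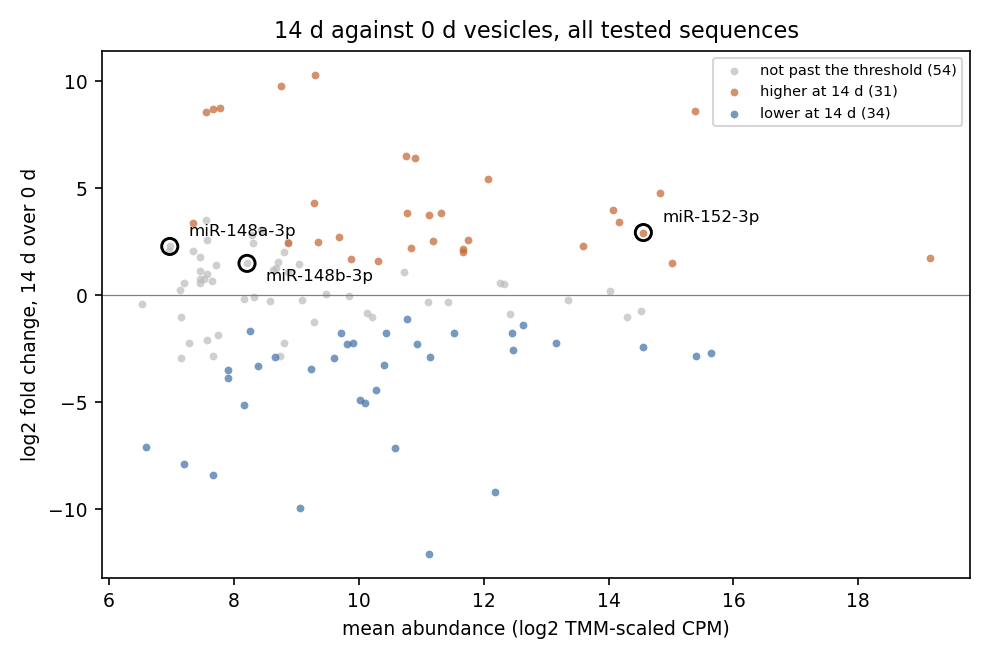
Mean abundance (x axis, log2 of TMM-scaled CPM, a count scaled to a common library size) and log2 fold change of 14 d over 0 d (y axis) for the 119 tested sequences, with 31 higher in orange, 34 lower in blue and the others in grey. The circled members are miR-152-3p, among the abundant sequences at 2.93, and miR-148a-3p and miR-148b-3p, which are less abundant, at 2.28 and 1.49, and not past the threshold.

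miR-148b-3p, the second member by count, had 60 and 35 counts in 0 d replicates 1 and 2, was not listed in replicate 3, and had 21, 18 and 21 counts in the 14 d libraries. Its shares were 0.0394% and 0.0213% where listed at 0 d, and 0.0344%, 0.0246% and 0.0358% at 14 d. The 14 d shares lay within the range of the 0 d shares. The log2 fold change was 1.49 ± 1.24 (SE, n = 3 per group; edgeR adjusted p = 0.327) and did not pass the threshold. Without 0 d replicate 3 it was 0.90 ± 0.61 (adjusted p = 0.234), and with total counts it was 0.63 (adjusted p = 0.666).

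miR-148a-3p had 7 and 19 counts in 0 d replicates 1 and 2, was not listed in replicate 3, and had 3, 11 and 13 counts in the 14 d libraries. Its shares, 0.00460% and 0.0116% at 0 d and 0.00491%, 0.0150% and 0.0221% at 14 d, overlapped between the groups. The log2 fold change was 2.28 ± 1.31 (SE, n = 3 per group; edgeR adjusted p = 0.161), not past the threshold. Summed over a group, it had 26 counts of 437465 at 0 d and 27 of 193087 at 14 d. Without 0 d replicate 3 the value was 1.70 ± 0.92 (adjusted p = 0.15). With all libraries the log2 fold change of miR-152-3p was within 1 SE of the value for miR-148a-3p and within 2 SE of that for miR-148b-3p. The SE used here is that of the miR-148 member and leaves out the error of miR-152-3p. Without 0 d replicate 3 the values were 2.65 ± 0.79 for miR-152-3p, 1.70 ± 0.92 for miR-148a-3p and 0.90 ± 0.61 for miR-148b-3p (SE). Differences in response between the members were not tested.

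Groups did not overlap in share of counts for 1 of the 3 tested members, against 69.7% of all tested sequences. In TMM-scaled CPM they did not overlap for 2 of the 3, miR-152-3p and miR-148b-3p, against 78.2%. The scaled values of miR-148b-3p were 294, 158 and 0 CPM at 0 d and 372, 522 and 388 CPM at 14 d.

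Within the family, miR-152-3p held 95.3%, 96.0% and 100% of the counts at 0 d, against 97.5%, 98.8% and 97.7% at 14 d. The value of 100% belongs to 0 d replicate 3, where 551 counts of miR-152-3p were the family's only listed counts. The mean was 97.1% ± 2.54 at 0 d against 98.0% ± 0.687 at 14 d (SD, n = 3 each; exact 2-sided permutation p = 0.6), a difference of 0.89 percentage points. This value rested on single libraries: it was 2.34 without 0 d replicate 3, when the groups did not overlap, and -0.02, 0.36 and 0.51 without 0 d replicate 1, 0 d replicate 2 and 14 d replicate 2. For each count of miR-148b-3p there were 22.6 and 43.5 counts of miR-152-3p in 0 d replicates 1 and 2, and 44.2, 162 and 70.0 in the 14 d libraries. The ratio in the library with no listed miR-148b-3p is not defined.

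The passenger strands were rare and were not tested. miR-152-5p was listed in 14 d replicate 2 alone, with 4 counts against 2909 of its guide strand, and so made up 0.137% of the 2 arms there (95% Clopper-Pearson interval 0.0374% to 0.351%). miR-148b-5p was listed in 0 d replicate 2 with 9 counts beside 35 of its guide strand, and in 14 d replicate 2 with 3 beside 18. It made up 20.5% (9.80% to 35.3%) and 14.3% (3.05% to 36.3%) of both arms in these libraries, and was not listed in the others. Over all libraries miR-148b-5p made up 12 of 167 counts of both arms, or 7.19% (3.77% to 12.2%). For miR-152-5p this was 4 of 8739, or 0.0458% (0.0125% to 0.117%). In 14 d replicate 2, where both stems gave counts from each arm, the intervals of the passenger share of miR-152 and of miR-148b did not overlap. That library was picked because both -5p arms were listed there, so this is a description. A difference between the stems was not tested.

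Ratios within a library need no scaling factor, and p-values were adjusted over 10 shares and ratios. For each 1000 counts of miR-21-5p, the most abundant vesicle miRNA, there were 23.2, 21.9 and 15.5 counts of miR-152-3p at 0 d and 22.1, 66.5 and 40.1 at 14 d. The value of 14 d replicate 1 lay within the 0 d range. The log2 ratio differed by 0.97 between the groups (exact 2-sided permutation p = 0.2, adjusted p = 0.25), and 2 of the 3 14 d libraries were above all 0 d libraries. Without 14 d replicate 2 the difference was 0.58, and without any other single library it was 0.79 to 1.38. Against the geometric mean of miR-16-5p, miR-423-5p and miR-320-3p, which are often used as references in vesicle work, the log2 ratio was 1.85, 1.86 and 1.17 at 0 d and 3.25, 5.31 and 3.94 at 14 d. The groups did not overlap, and the difference was 2.54 (exact p = 0.1, adjusted p = 0.167). The 3 references did not give the same answer. The difference was 4.10 against miR-320-3p, which itself fell by 1.41 ± 0.43 (edgeR adjusted p = 0.0266), and 2.97 against miR-423-5p, with non-overlapping groups for each (exact p = 0.1). Against miR-16-5p, which rose by 2.50 ± 0.75 (SE, n = 3 per group; edgeR adjusted p = 0.0259), it was 0.55 with overlapping groups (exact p = 0.2, adjusted p = 0.25). The log2 fold change of miR-423-5p itself was -0.30 ± 0.36 (edgeR adjusted p = 0.486), not past the threshold. Its mean share was 0.408% at 0 d and 0.196% at 14 d. The rise of miR-16-5p missed the threshold under total counts (1.37), when 14 d replicate 2 was left out (1.42) and when 0 d replicate 3 was (2.41). The fall of miR-320-3p missed it when any 1 of 3 libraries was left out, namely 0 d replicate 1 (-1.50), 0 d replicate 2 (-1.05) and 14 d replicate 3 (-1.38).

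**Figure D3:**
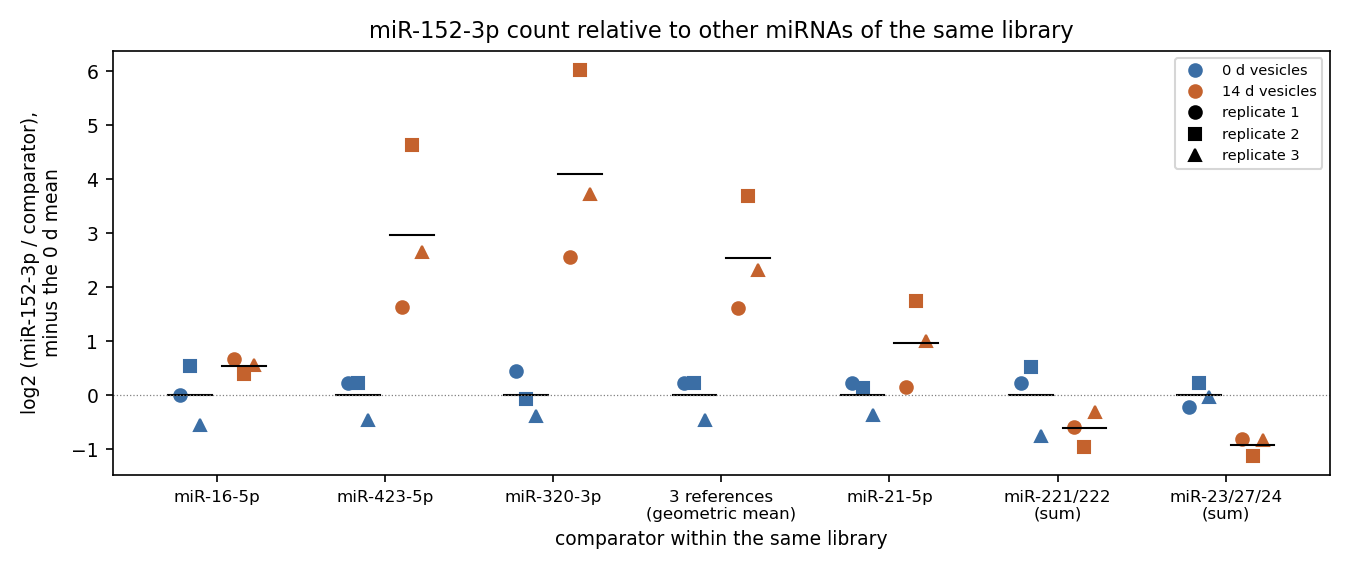
Log2 ratio of the miR-152-3p count to that of other miRNAs in the same library (y axis, minus the 0 d mean of each ratio) for 7 comparators (x axis). Points are libraries, with 0 d in blue and 14 d in orange, and black lines are group means. The 14 d mean lies 4.10 above the 0 d mean against miR-320-3p, 0.97 above it against miR-21-5p with overlapping groups, and 0.92 below it against the clusters of miR-23, miR-27 and miR-24.

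The clusters of miR-23, miR-27 and miR-24 and of miR-221 and miR-222 were set beside the family because they also hold abundant miRNAs that rose. The ratios to them are therefore given as a description, in a direction that this choice bears on. Their p-values are among the 10 that were adjusted but are not read as tests. For each count of miR-27b-3p, known for restraining fat cell formation, there were 2.32, 3.58 and 2.52 counts of miR-152-3p at 0 d and 0.916, 0.708 and 0.884 at 14 d. miR-152-3p was thus the more abundant of this pair in each 0 d library and the less abundant in each 14 d library. Against the summed counts of the 7 listed members of the clusters of miR-23, miR-27 and miR-24, the log2 ratio of miR-152-3p was -0.47, -0.02 and -0.28 at 0 d and -1.07, -1.37 and -1.09 at 14 d. The difference was -0.92, and the groups did not overlap. Against the 3 listed members of the cluster of miR-221 and miR-222, whose miR-221-3p is known to act on cell cycle inhibitors, the difference was -0.61 with overlapping groups.

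The 5 annotated miRNAs whose log2 TMM-scaled CPM over the 6 libraries was most like that of miR-152-3p were miR-24-3p (Pearson r = 0.996), miR-3559-3p (0.994), miR-20a-5p (0.987), miR-22-3p (0.985) and miR-27b-3p (0.983). These values are a description over 6 libraries that share their depth and scaling factors. In log2 share of counts, without scaling factors, 4 of the 5 were also at places 1, 2, 3 and 5. miR-22-3p was at place 58 with r = -0.67. Its TMM-scaled level differed between the groups by a log2 fold change of 0.58, not past the threshold (edgeR adjusted p = 0.161), while its mean share was 0.531% ± 0.0470 (SD, n = 3) at 0 d and 0.436% ± 0.0985 (SD, n = 3) at 14 d. miR-24-3p rose by 3.43 ± 0.73, miR-20a-5p by 2.60 ± 0.61 and miR-3559-3p by 2.45 ± 0.72 (SE, n = 3 per group; edgeR adjusted p = 0.0067, 0.0102 and 0.024). The counts of miR-3559-3p were low, with group sums of 87 counts at 0 d and 100 at 14 d, and its rise missed the threshold under total counts (1.37), when 14 d replicate 2 was left out (1.57) and when 0 d replicate 3 was (2.26). Without 14 d replicate 2, miR-24-3p was at 2.35 and miR-20a-5p at 1.72, both still called.

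**Figure D4:**
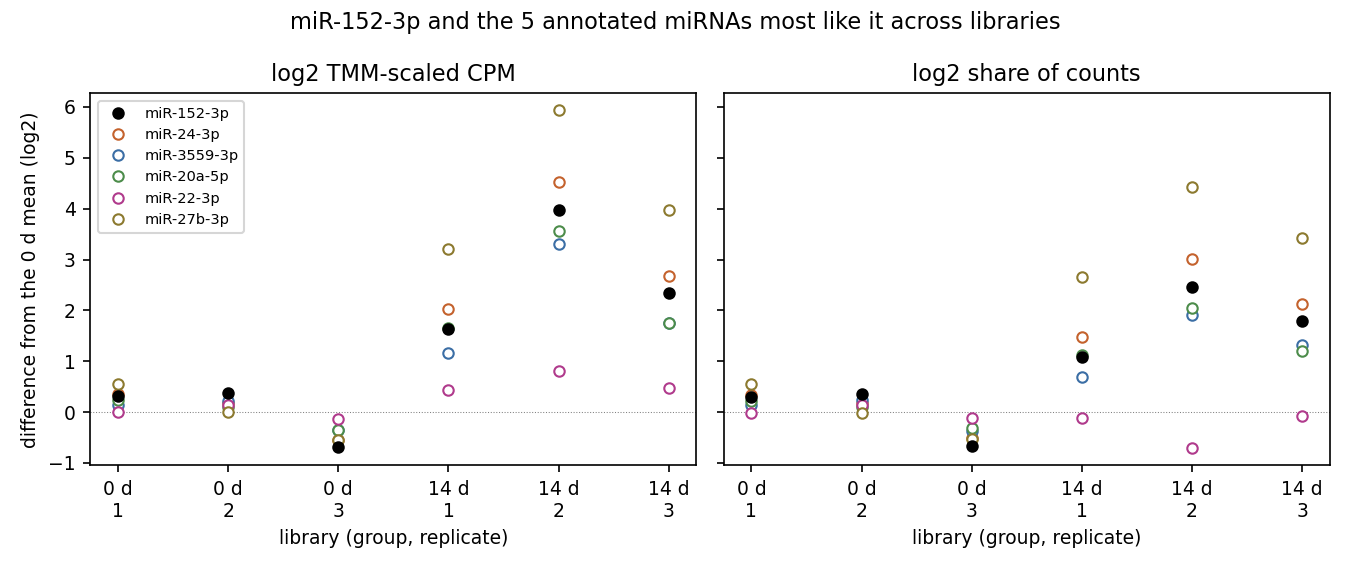
Level of miR-152-3p (filled) and of the 5 annotated miRNAs most like it (open) in each library (x axis), as the difference from the 0 d mean in log2 TMM-scaled CPM (left) and in log2 share of counts (right). In both panels miR-152-3p is lowest in 0 d replicate 3 and highest in 14 d replicate 2. In the left panel miR-22-3p goes up and down with miR-152-3p (r = 0.985) but over a smaller range. In the right panel it does not (r = -0.67).

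Other miRNAs carry the letters of the seed shared by miR-148 and miR-152, CAGUGCA. They occurred at bases 2 to 8 in 3 of the 417 sequences (0.719%), the guide strands above, and at any position in 8 (1.92%). miR-17-5p and miR-106b-5p, relatives in the growth-linked miR-17 family, hold them from base 12, and miR-139-5p from base 5, none of which is a seed position. The seed of miR-130 and miR-301 is the same stretch moved by 1 base, and these relatives were almost absent.
miR-301a-3p: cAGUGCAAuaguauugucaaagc
predicted tag: cAGUGCAAuguuaaaaggg
miR-301a-3p had 2 counts in 1 library at 14 d. The predicted tag, an unnamed 19-base sequence that equals the start of RefSeq's 22-base miR-130a-3p, had group sums of 4 counts at 0 d and 4 at 14 d. The deposited counts with either form of this seed were therefore almost all from miR-152-3p.

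Of 20 further names of miRNAs reported to act on DNA methyltransferases, the function for which miR-152-3p is best known, 15 were listed and 12 were tested. The 20 names include both miR-126a-3p and miR-126-3p, of which only the former had a row. Of the 12 tested, 6 rose and 1 fell, where over all tested sequences 26.1% rose and 28.6% fell. The median log2 fold change was 1.94 in the list and 0.26 over all tested sequences. The list was chosen with earlier results of these data known, so this contrast is a description. Whether such miRNAs rose as a set was not tested. The risen members were miR-221-3p, miR-30a-5p, miR-20a-5p, miR-143-3p, miR-21-5p and miR-140-5p. The 2 largest changes were those of miR-221-3p, 3.99 ± 0.80, and of miR-30a-5p, 3.77 ± 0.70 (SE, n = 3 per group; edgeR adjusted p = 0.00628 and 0.00499). miR-140-5p, which is also known for its role in cartilage, rose by 1.62 ± 0.51 (adjusted p = 0.0303). It missed the threshold under total counts (0.61), when any 0 d library was left out (1.39 to 1.68) and when 14 d replicate 2 was (1.04). The endothelial miR-126a-3p fell by 1.76 ± 0.46 (edgeR adjusted p = 0.0142), but missed the threshold when 14 d replicate 1 was left out (-1.57) and when 14 d replicate 3 was (-1.82). With the second 14 d library left out, log2 fold changes were 2.64 for miR-221-3p and 2.75 for miR-30a-5p, both still called. For miR-29a-3p, known for acting on the de novo methyltransferases and on collagens, the value was 1.11 (adjusted p = 0.209), for miR-185-5p 1.16 (adjusted p = 0.118) and for miR-17-5p 2.82 (adjusted p = 0.124), none past the threshold. With total counts 3 of the 12 rose and 1 fell, as miR-140-5p, miR-143-3p (1.37) and miR-21-5p (0.79) then missed the threshold, and over all tested sequences 15.1% rose and 38.7% fell. The median under total counts was 1.08 in the list and -0.53 over all tested sequences.

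**Figure D5:**
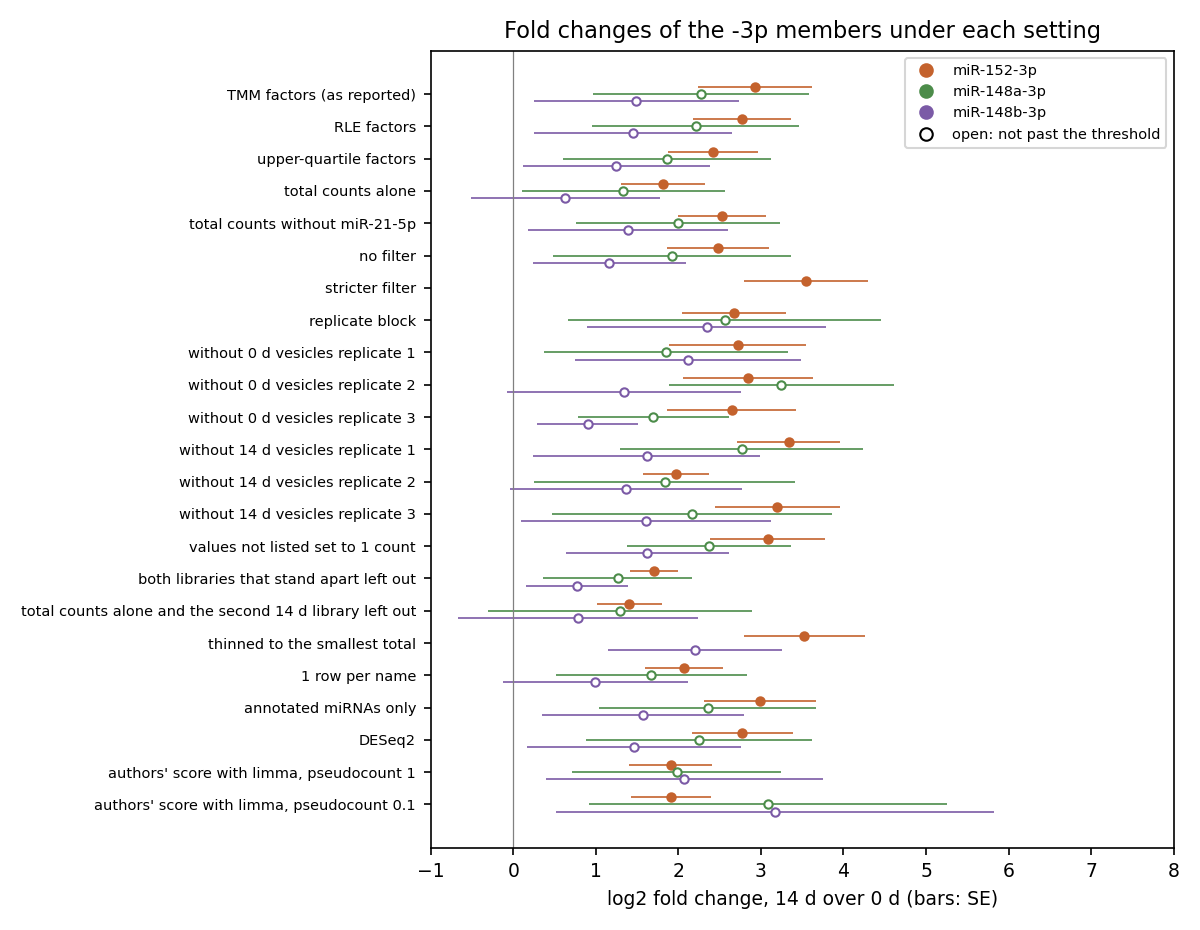
Log2 fold change of 14 d over 0 d (x axis, bars are SE) for miR-152-3p (orange), miR-148a-3p (green) and miR-148b-3p (purple) under each setting (y axis), with filled points past an adjusted p of 0.05. miR-152-3p is filled throughout, from 1.41 to 3.55, and the points of miR-148a-3p and miR-148b-3p are open wherever they were tested.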

How the data were processed

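Small RNA was sequenced from vesicles at 0 d and 14 d (n = 3 each); per the labels' protocols, Trizol was used for extraction and a small RNA kit for the libraries. Novoalign 3.02.12, cutadapt 1.9.3 and build rn6 appear, without roles, in the submitters' processing notes, and the sources used here give no counting tool or annotation version. Per the file headers, the authors deposited raw tag counts per mature miRNA and a normalized score, a scaled count rounded to whole numbers.

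The 483 deposited lines were merged into 417 mature sequences (repeated lines had equal counts), and blanks were taken as 0. edgeR 4.0.16 (R 4.3.3) fitted all 6 libraries with TMM factors and the group as the only term, after its default filter (minimum count 10, total 15), with 2-sided tests and Benjamini-Hochberg adjustment at 0.05. SE is the log2 fold change over the square root of F. The fit was tested on simulated data with few changed sequences, which does not test the TMM factors under changes as widespread as those here. Library totals were 58730 to 164424 counts, and Clopper-Pearson intervals on shares cover counting error only. Named miRNAs are the members, the 5 most alike, the rank neighbours, the seed relatives, the comparators and, in the methyltransferase list, called members and up to 3 abundant others. Members and lists were chosen with earlier results of these data known. Alternatives included DESeq2 1.42.0, limma 3.58.1 on the score, other factors and filters, and single libraries left out.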

Additional observations from a re-analysis of the deposited data

How the results depend on the processing

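The miR-152-3p rise kept its direction and its call in all 22 alternatives, with log2 fold changes of 1.41 to 3.55 and adjusted p of 1.74e-05 to 0.0336. Leaving out 1 library gave 1.97 to 3.34, and the replicate block gave 2.68 (adjusted p = 0.00747). The labels do not say whether samples with the same replicate number are paired. Their correlations of deviations were -0.0161, 0.0406 and 0.167, which cannot settle this with 3 samples per group. The block gave 62 calls against 65. miR-148a-3p (1.26 to 3.25 in 20 alternatives) and miR-148b-3p (0.63 to 3.17 in 21) stayed positive and uncalled. Counts of calls were 50 to 82. Chosen after seeing the data were 3 alternatives: unlisted values set to 1 count, 0 d replicate 3 and 14 d replicate 2 both left out (1.70 for miR-152-3p), and total counts without 14 d replicate 2 (1.41). With miR-21-5p left out of the total, the difference in share was 5.89 percentage points for miR-152-3p (1.91 with it) and 5.98 for the family (1.93 with it). The reference ratio was 0.55 against miR-16-5p alone and 4.10 against miR-320-3p alone (2.54 for all 3); the cause was not tested. The family-composition difference ran from -0.02 to 2.34 percentage points with 1 library left out. The SE of miR-148b-3p, 1.24, was 1.06 with all libraries thinned to the smallest total and 0.61 without 0 d replicate 3, where neither miR-148 guide strand was listed; that of miR-148a-3p was 1.31 and 0.92 without that library.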
